A study of Mus musculus with 6 samples.

Results

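The genes described here are 32 genes of leptomeningeal fibroblasts and of the interstitial extracellular matrix, chosen by name from the 55421 genes listed in a table of hippocampal RNA-seq counts. They are fibrillar and other interstitial collagens, small leucine-rich proteoglycans, secreted glycoproteins, and the transporters, retinoid genes and transcription factors used as markers of leptomeningeal fibroblasts. The genes were listed by name, with earlier results of these data known, and no threshold on a measured value was applied. All 32 were found under 1 identifier each, the smallest count of any of them in any library was 25, and all 32 were among the 17069 genes that passed the filter on low counts and were tested.

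Hippocampi came from wild-type male C57BL/6N mice aged 8 to 10 weeks. In the SP group, 3 mice received substance P (SP), a neuropeptide released by sensory nerve endings, at 10 µM in 100 µL under the skin on 14 consecutive days, and in the vehicle group 3 mice received the same volume of saline. Stranded mRNA libraries were made from the hippocampal RNA, and each carries a replicate number from 1 to 3, called a batch in the labels, that the groups share. The comparison asks which transcripts in the hippocampus differ after peripheral SP.

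The leptomeninges are the thin membranes, arachnoid and pia, that cover the brain and line its fissures, the hippocampal fissure included. Their fibroblasts, with those around larger vessels, are the main source of fibrillar collagen in the healthy brain, whereas the neural tissue itself holds little collagen. Fibrillar collagens assemble into fibrils outside the cell, small leucine-rich proteoglycans bind to the fibrils and influence their spacing and thickness, and glycoproteins such as fibronectin link the network to cells. Leptomeningeal fibroblasts also carry transporters that move solutes between blood, cerebrospinal fluid and brain, and they make retinoic acid, which acts on neighbouring cells during development.

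Libraries held 22349964 to 27605935 counts. Levels are given as CPM, the counts of a gene scaled to the TMM-normalized library size, and 3 counts, the floor used here, corresponded to 0.109 to 0.135 CPM. All 8 hippocampal neuron markers were detected in every library, with a lowest value of 13.4 CPM, and so were all 8 markers of leptomeningeal fibroblasts, with a lowest value of 2.38 CPM. Library SP 1 stood apart from the others in choroid plexus epithelium, the tissue that makes cerebrospinal fluid. The 12 markers of that epithelium summed to 188 CPM in SP 1, against 2924 and 4111 CPM in the other SP libraries and 3945 to 4946 CPM in the vehicle libraries. Library SP 2 was the highest for all 8 oligodendrocyte markers, whose sum there was 158% of the vehicle mean. Mice were separate animals by their labels. The p-values of the main test below rest on the spread between animals that was left after the replicate number was taken into account.

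None of the 32 genes was called different between SP and vehicle. A call required an FDR under 0.1 in edgeR's quasi-likelihood test with the replicate number as a block, with Benjamini-Hochberg adjustment over all tested genes, and a log2 fold change beyond 0.3 in either direction. That rule called 5 of 17069 genes, or 0.0293%. The smallest FDR among the 32 genes in this edgeR test was 0.335, for *Slc13a4*. Fitted log2 fold changes (SP over vehicle) were below 0 for 30 of the 32, or 93.8%, against 49.5% of all tested genes, and their median was −0.22, against 0.0015 over all genes. An unadjusted p under 0.05 in the edgeR test was found for 8 genes with lower values under SP, or 25.0%, against 5.59% of all genes, and for 0 genes with higher values, against 4.48% of all genes. These shares are descriptions, because genes of one tissue compartment are not independent of each other. The 32 genes were also chosen with earlier results of these data known. In bulk RNA, fewer cells of a type and less RNA per cell cannot be told apart.

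The SP libraries were unlike each other in these genes. The median level relative to the vehicle mean was 98.7% in SP 1, 73.4% in SP 2 and 86.1% in SP 3, whereas the vehicle libraries lay between 98.6% and 101%. SP 2 was the lowest of the 6 libraries for 20 of the 32 genes, or 62.5%, against 21.7% of all tested genes. It was below the lowest vehicle library for 25 of them, and SP 3 was for 24, against 31.7% and 27.6% of all tested genes in those libraries. SP 1 was below the lowest vehicle library for 10 of the 32, or about as often as among all tested genes, at 31.2%. The SP and vehicle values did not overlap, with SP lower, for 6 genes (*Slc13a4*, *Fbln1*, *Slc6a20a*, *Ogn*, *Fmod* and *Col1a2*), or 18.8%, against 9.03% of all genes. Separation with SP higher was seen for 0 genes, against 9.19% of all genes. Within pairs of the same replicate number, 12 genes were lower under SP in 3 of 3 pairs, or 37.5%, against 16.7% of all genes.

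The size of the shift differed between the replicate pairs. The median of the log2 differences was 0.0073 in the pair numbered 1, where 16 of 32 genes were lower under SP, −0.44 in the pair numbered 2 and −0.23 in the pair numbered 3, with 28 of 32 lower in each. Without replicate 2 the median fitted log2 fold change was −0.11 and 24 genes were below 0. In that fit 6 of the 32 had lower values under SP at an unadjusted edgeR p under 0.05, and 1, *Col6a3*, had higher ones. Of all 16753 genes in that fit 1916 had such a p, and 1022 of these, or 6.10% of all genes, were lower. Without replicate 1 the median was −0.34 and 15 of the 32 genes had lower values at that threshold, against 3.54% of all genes. DESeq2 with the same block called 1 of the 32 genes, *Slc13a4*, in a test that called 36 of 11443 genes, or 0.315%. At an unadjusted p under 0.05 that test found 2 of the 32, both lower under SP, against 2.31% of all genes lower. With no filter on low counts, edgeR called *Slc13a4* and *Fmod*, in a fit that called 384 of 28039 genes, or 1.37%.

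**Figure D1:**
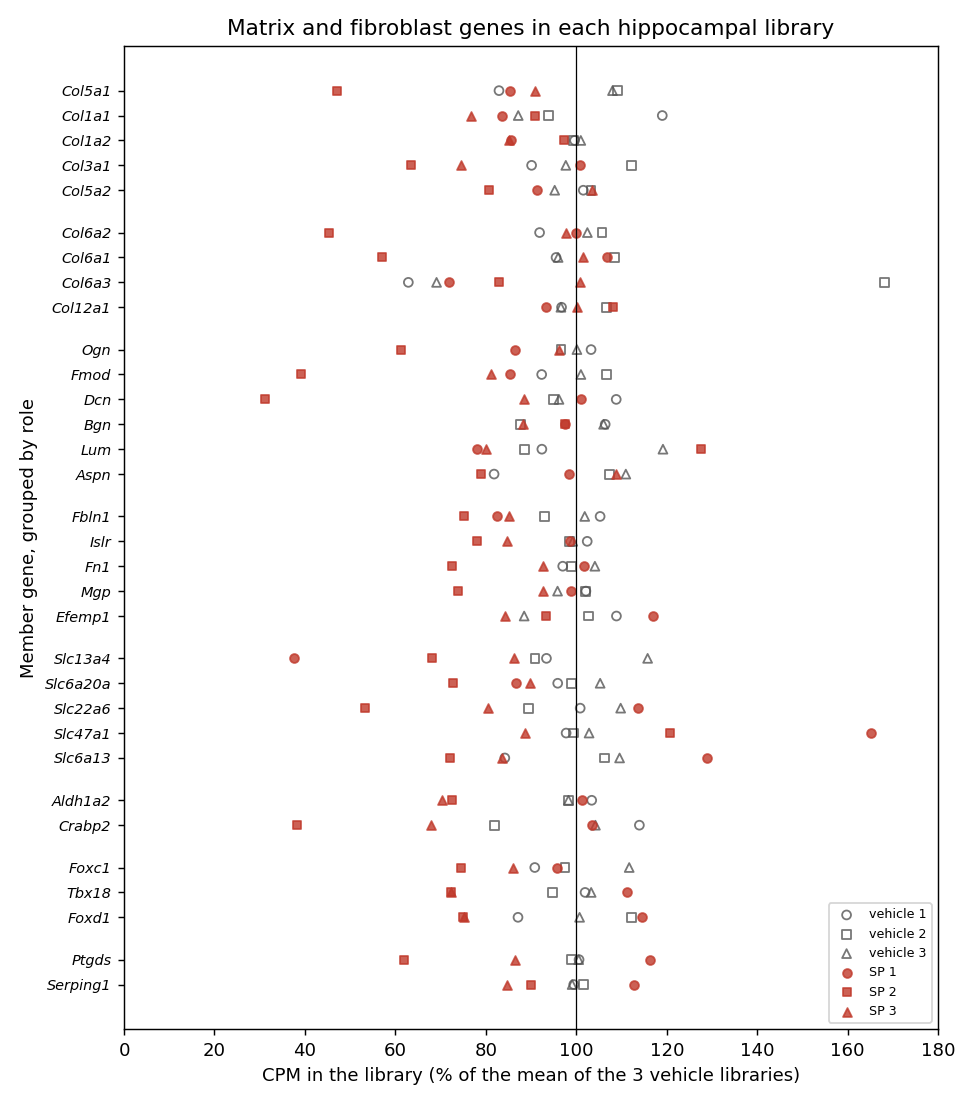
CPM of each of the 32 genes, 1 row per gene and grouped by role, in each library as a percentage of the gene's mean over the 3 vehicle libraries, on a linear axis; open symbols are vehicle libraries, filled symbols SP libraries, and circles, squares and triangles are replicates 1, 2 and 3. The filled squares (SP 2) are leftmost for 20 genes and reach down to 31.2% for *Dcn*, while the filled circles (SP 1) reach down to 37.7% for *Slc13a4* and up to 165% for *Slc47a1*.

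The fitted differences ranged from −0.70 for *Slc13a4* to 0.29 for *Slc47a1*, and *Col12a1*, at 0.0064, was the only other gene not below 0. Standard errors were wider than for most genes, with a median of 0.15 for the 32 genes and 0.09 over all tested genes.

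**Figure D2:**
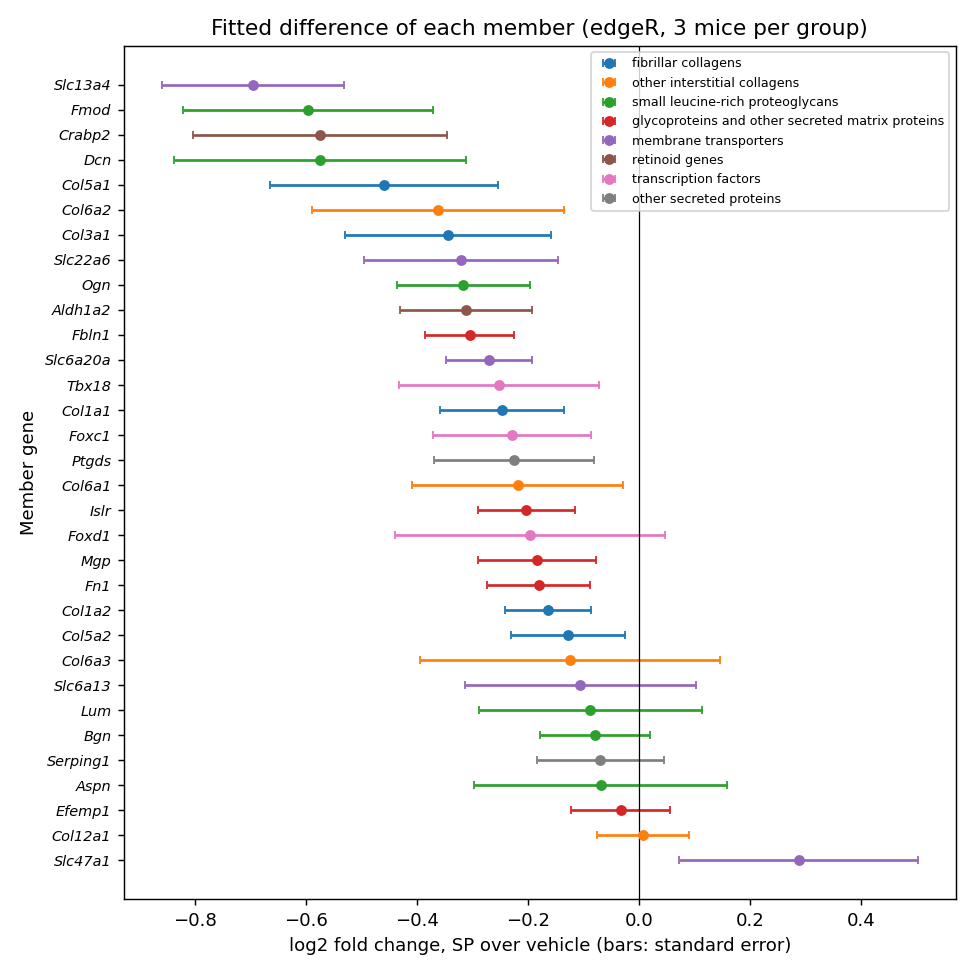
Fitted log2 fold change (SP over vehicle, 3 mice per group) of the 32 genes with bars of 1 standard error, ordered by size and coloured by role. The 30 genes below 0 reach −0.70 for *Slc13a4*, and *Slc47a1* lies highest at 0.29.

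The fibrillar collagens were lower by a median log2 fold change of −0.25, with 5 of 5 below 0 and none at an unadjusted p under 0.05 in edgeR's test. *Col1a1* (ENSMUSG00000001506, chr11:94936224-94953042), one of the chains of type I collagen, measured 14.9, 11.8 and 10.9 CPM in the vehicle libraries and 10.5, 11.4 and 9.61 CPM in the SP libraries, in the order of their replicate numbers. The groups overlapped, since SP 2 lay above vehicle 3. *Col1a2* (ENSMUSG00000029661, chr6:4504814-4541544), its partner chain, was more even among the control mice. It measured 22.5, 22.4 and 22.8 CPM under vehicle and 19.3, 21.96 and 19.2 CPM under SP, so the groups did not overlap, and its log2 fold change was −0.16 ± 0.08 (SE, n = 3 mice per group). Neither type I chain was particularly low in SP 2, whereas *Col5a1*, a chain of type V collagen, which takes part in starting fibrils, was at 19.9 CPM in SP 2 and between 35.1 and 46.2 CPM in the 5 other libraries. The log2 fold change of *Col5a1* was −0.46 ± 0.21 (SE), and −0.11 without replicate 2. *Col3a1*, the chain of type III collagen, had −0.34 ± 0.19, and −0.11 without replicate 2, and *Col5a2*, the other type V chain measured, had −0.13 ± 0.10.

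For the other interstitial collagens the median was −0.17 on the log2 scale, with 3 of 4 below 0, and without replicate 2 it was 0.073. *Col6a1* (ENSMUSG00000001119, chr10:76708792-76726168), a chain of the beaded type VI collagen filaments that surround cells, was the second highest of the 32 genes per length, at 16.1 CPM per kilobase of exon. It measured 71.5, 81.2 and 71.8 CPM in the vehicle libraries and 79.9, 42.7 and 75.9 CPM in the SP libraries. Only SP 2 was low, and the log2 fold change of −0.22 ± 0.19 (SE) became 0.12 without replicate 2. *Col6a2*, which lies 85.2 kb from *Col6a1* on chromosome 10 and encodes another chain of the same filament, was 11.1 CPM in SP 2 and 22.5 to 25.9 CPM elsewhere, and across the 6 libraries its log2 CPM had a Pearson's r of 0.98 with that of *Col6a1*. *Col6a3*, the third chain, on chromosome 1, did not share this order. It measured 6.83, 18.3 and 7.51 CPM under vehicle and 7.80, 9.01 and 10.96 CPM under SP, with the highest value in vehicle 2, and its r with *Col6a2* was 0.16. *Col12a1*, whose product attaches to the surface of fibrils, ranged from 12.5 to 14.4 CPM over the 6 libraries.

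All 6 small leucine-rich proteoglycans had a log2 fold change below 0, with a median of −0.20, and 2 of them had an unadjusted p under 0.05 in the edgeR test. *Fmod* (ENSMUSG00000041559, chr1:134037254-134048277) encodes fibromodulin, which binds collagen fibrils and affects their growth and crosslinking. It measured 19.8, 22.8 and 21.6 CPM in the vehicle libraries and 18.3, 8.38 and 17.4 CPM in the SP libraries. The groups did not overlap, and SP 2 was far below every other library. Its log2 fold change was −0.60 ± 0.23 (SE), with an FDR of 0.451 in edgeR's test, and −0.21 without replicate 2. *Ogn* (ENSMUSG00000021390, chr13:49608046-49624501), which encodes osteoglycin, measured 17.4, 16.2 and 16.8 CPM under vehicle and 14.5, 10.3 and 16.2 CPM under SP. SP 3 lay just under vehicle 2 in *Ogn*, so the groups were barely apart. For *Ogn* the log2 fold change was −0.32 ± 0.12 (SE), with an FDR of 0.451 in the edgeR test, and −0.16 without replicate 2.

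Decorin and lumican, neighbouring genes of this class, differed most in SP 2, which was the lowest library for one and the highest for the other. *Dcn* (ENSMUSG00000019929, chr10:97479609-97518143), which encodes decorin, a binder of collagen and of TGF-beta, measured 86.6, 75.6 and 76.5 CPM in the vehicle libraries and 80.3, 24.9 and 70.3 CPM in the SP libraries. Its level in SP 2, 31.2% of the vehicle mean, was the lowest relative level of any of the 32 genes in any library, while SP 1 lay inside the vehicle range. For *Dcn*, the log2 fold change of −0.58 ± 0.26 (SE) became −0.12 without replicate 2. *Lum* (ENSMUSG00000036446, chr10:97565128-97572703), 47.0 kb away, measured 7.005, 6.71 and 9.03 CPM under vehicle and 5.92, 9.67 and 6.06 CPM under SP, with SP 3 again below every vehicle library. The Pearson's r between the log2 CPM of *Dcn* and *Lum* was −0.66 over the 6 libraries, which is a description of libraries that share tissue and preparation. *Bgn*, encoding biglycan, and *Aspn*, encoding asporin, had log2 fold changes of −0.080 and −0.070, within 1 standard error of 0.

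Among the glycoproteins and other secreted matrix proteins the median was −0.18 on the log2 scale, with 5 of 5 below 0 and 2 at an unadjusted p under 0.05 in the edgeR test. *Fbln1* (ENSMUSG00000006369, chr15:85205949-85286535) encodes a fibulin of elastic fibres and basement membranes. It measured 16.8, 14.8 and 16.2 CPM in the vehicle libraries and 13.1, 12.0 and 13.6 CPM in the SP libraries. Every SP mouse was below every vehicle mouse, and no SP library stood out from the rest. *Fbln1* had a log2 fold change of −0.31 ± 0.08 (SE), with an FDR of 0.351 in edgeR's test, and it stayed between −0.36 and −0.26 whichever mouse or pair was left out. *Islr* (ENSMUSG00000037206, chr9:58156268-58204306), a marker of mesenchymal stromal cells, measured 17.8, 17.1 and 17.2 CPM under vehicle and 17.1, 13.6 and 14.7 CPM under SP. SP 1 lay among the vehicle libraries in *Islr*, and the log2 fold change was −0.20 ± 0.09 (SE), with an FDR of 0.493 in the edgeR test. Leaving out 1 mouse or pair gave −0.30 to −0.12.

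Fibronectin is a cell-adhesive protein made by several cell types of vessels and meninges. Its gene *Fn1* (ENSMUSG00000026193, chr1:71585520-71653200) measured 76.4, 77.9 and 82.0 CPM in the vehicle libraries and 79.98, 57.1 and 73.0 CPM in the SP libraries, so that SP 1 lay within the vehicle range and the other SP libraries below it. *Mgp* (ENSMUSG00000030218, chr6:136872435-136875823), whose product inhibits calcification, was the third highest per length at 12.3 CPM per kilobase. *Mgp* measured 15.8, 15.8 and 14.8 CPM under vehicle and 15.3, 11.4 and 14.3 CPM under SP. Log2 fold changes were −0.18 ± 0.09 (SE) for *Fn1* and −0.18 ± 0.11 for *Mgp*, and without replicate 2 they were −0.051 and −0.048. *Efemp1*, which encodes another fibulin, had −0.034 ± 0.089.

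The membrane transporters spanned the widest range, around a median of −0.27 on the log2 scale, with 4 of 5 below 0 and 2 at an unadjusted p under 0.05 in the edgeR test. *Slc13a4* (ENSMUSG00000029843, chr6:35267957-35308131) encodes a sodium-dependent sulfate transporter of the leptomeninges and choroid plexus. It measured 35.0, 34.0 and 43.4 CPM in the vehicle libraries and 14.1, 25.5 and 32.3 CPM in the SP libraries. The groups did not overlap, and the lowest library was SP 1, at 37.7% of the vehicle mean, not SP 2 as for most of the 32 genes. Its log2 fold change was −0.70 ± 0.16 (SE), with an FDR of 0.335 in edgeR's test, 0.020 in DESeq2's and 0.0028 in the edgeR fit without the filter. The choroid plexus markers moved with this gene in SP 1, where their sum was 4.34% of the vehicle mean and 12 of 12 had their lowest value. In SP 2 and SP 3 their sum was 67.7% and 95.2% of the vehicle mean, against 68.0% and 86.2% for *Slc13a4*. Vehicle 3 was the highest library for *Slc13a4* and for 10 of the 12 markers. Without replicate 1 the log2 fold change of *Slc13a4* was −0.42, and the values of pairs 2 and 3 were −0.42 and −0.42. Those pairs also differed in the choroid plexus sum, and the part of that tissue in the *Slc13a4* result was not tested.

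*Slc6a20a* (ENSMUSG00000036814, chr9:123634770-123678885), which encodes a transporter of proline and related imino acids, was the fifth highest of the 32 genes per length, at 7.19 CPM per kilobase. It measured 30.8, 31.7 and 33.8 CPM in the vehicle libraries and 27.8, 23.4 and 28.8 CPM in the SP libraries. The groups did not overlap, and SP 2 was the lowest. *Slc6a20a* had a log2 fold change of −0.27 ± 0.08 (SE), with an FDR of 0.385 in the edgeR test. It was the only gene of the 32 to have an unadjusted p under 0.05 in 18 of 18 alternative fits, with *Fbln1* at 17 and *Slc13a4* at 16, fits that reuse the same 6 mice.

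*Slc6a13* (ENSMUSG00000030108, chr6:121300227-121337733), a transporter of GABA and taurine at the brain's borders, measured 11.4, 14.4 and 14.9 CPM under vehicle and 17.5, 9.80 and 11.4 CPM under SP. The highest and the lowest of the 6 libraries were both SP libraries, and the log2 fold change was −0.11 ± 0.21 (SE). *Slc47a1*, encoding an exporter of organic cations, measured 2.62, 2.67 and 2.76 CPM under vehicle and 4.43, 3.24 and 2.38 CPM under SP. Its log2 fold change of 0.29 ± 0.21 was the highest of the 32, and 0.040 without replicate 1. *Slc22a6*, encoding an organic anion transporter, had −0.32 ± 0.17, and −0.13 without replicate 2.

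Both retinoid genes had an unadjusted p under 0.05 in the edgeR test. *Aldh1a2* (ENSMUSG00000013584, chr9:71215789-71296243), the enzyme that makes retinoic acid in meninges, measured 11.3, 10.7 and 10.7 CPM in the vehicle libraries and 11.1, 7.93 and 7.68 CPM in the SP libraries. SP 1 was at the vehicle level and the other SP libraries were below every vehicle library. Its difference was −0.31 ± 0.12 (SE) on the log2 scale, with an FDR of 0.451 in edgeR's test, and −0.49 to −0.21 with a mouse or pair left out. *Crabp2* (ENSMUSG00000004885, chr3:87948666-87953376), which carries retinoic acid to its nuclear receptors, measured 3.09, 2.22 and 2.83 CPM under vehicle and 2.81, 1.04 and 1.84 CPM under SP. SP 1 was inside the vehicle range and the other SP libraries were below it. The log2 fold change of *Crabp2* was −0.58 ± 0.23 (SE), with an FDR of 0.465 in the edgeR test, and it went from −0.92 without SP 1 to −0.22 without SP 2, both without the block.

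The 3 transcription factors had differences close to each other, all below 0, with a median of −0.23 on the log2 scale. *Foxc1* (ENSMUSG00000050295, chr13:31806633-31812476), needed for the formation of the meninges, measured 5.46, 5.86 and 6.71 CPM under vehicle and 5.75, 4.48 and 5.16 CPM under SP, and SP 1 overlapped the vehicle libraries. *Tbx18*, also used as a marker of mural cells, had a log2 fold change of −0.25 ± 0.18 (SE), and *Foxd1*, the lowest of the 32 genes per length at 0.422 CPM per kilobase, had −0.20 ± 0.24.

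*Ptgds* (ENSMUSG00000015090, chr2:25466709-25470046), the enzyme that makes prostaglandin D in brain and a major protein of cerebrospinal fluid, was by far the highest, at 333 CPM per kilobase, and made up 48.3% of the summed CPM of the 32 genes. It measured 587, 577 and 586 CPM in the vehicle libraries and 679, 362 and 504 CPM in the SP libraries. The vehicle mice were nearly equal, while the SP mice lay on both sides of them. Its log2 fold change was −0.23 ± 0.14 (SE), and −0.0040 without replicate 2. Oligodendrocytes also express *Ptgds*, and in SP 2, where *Ptgds* was lowest, the 8 oligodendrocyte markers were at their highest. *Serping1*, encoding the inhibitor of the first complement component, had −0.071 ± 0.11.

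**Figure D3:**
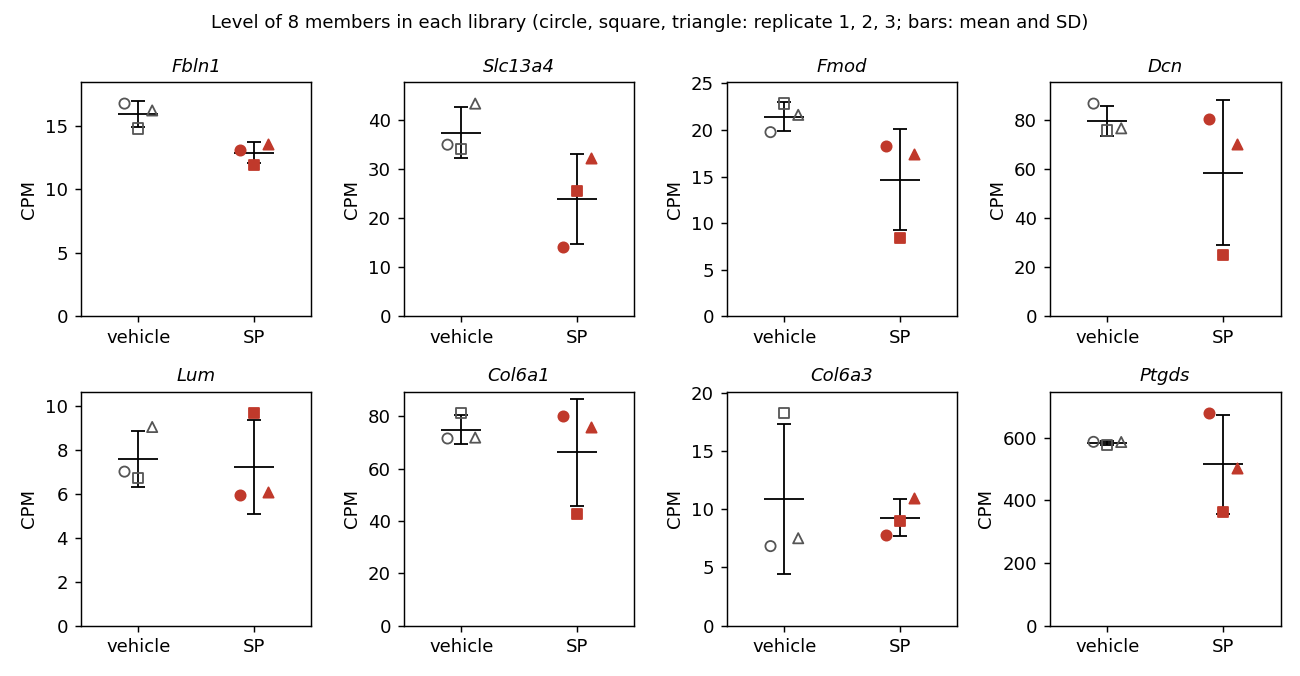
CPM of 8 of the genes in each library on a linear axis that starts at 0, with circles, squares and triangles for replicates 1, 2 and 3, open for vehicle and filled for SP, and bars for the mean and SD of 3 mice. *Fbln1* and *Slc13a4* separate the groups, *Dcn*, *Col6a1* and *Ptgds* have their low value in SP 2, *Lum* is highest in SP 2 and *Col6a3* is highest in vehicle 2.

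The summed CPM of the 32 genes was 1213, 1226 and 1233 in the vehicle libraries and 1282, 782 and 1082 in the SP libraries, or 105%, 63.9% and 88.4% of the vehicle mean in SP 1, SP 2 and SP 3. Without *Ptgds* and *Fn1*, which other brain cells also express, the sums were 550, 571 and 565 CPM under vehicle and 524, 363 and 505 CPM under SP. SP 1 was then below the vehicle libraries as well. That sum still held *Slc13a4*, at 14.1 CPM in SP 1 and 34.0 to 43.4 CPM under vehicle. With *Slc13a4* taken out as well, SP 1 stayed below each vehicle library, by less. The median level of the 32 genes in SP 1 was 98.7% of the vehicle mean. Across the 6 libraries, the mean of the standardized levels of the 32 genes was followed most closely by *Islr*, *Col3a1*, *Fn1* and *Fmod*, with Pearson's r from 0.94 to 0.97, and least by *Lum* (−0.37) and *Col12a1* (−0.54). These r include each gene in the mean and rest on 6 libraries. Among other tested genes, the 10 most alike to that mean, by r from 0.98 to 1.00, were *Kcnk9*, *Kcnk3*, *Gm19744*, *Ifit1bl1*, *E2f7*, *Gm5176*, *Cntn5*, *Ptpn4*, *Cstf3* and *Ccdc184*. These 10 were picked for the highest r out of all other tested genes, over 6 libraries, so high values come with the choice. In SP 2, *E2f7* was at the floor, at 0.125 CPM, and *Gm5176* was under it, at 0.083 CPM.

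Promoters are shown for 5 of these genes because they stand for the patterns above: a fibrillar collagen low in SP 2 and SP 3 (*Col3a1*), one whose vehicle libraries were nearly equal (*Col1a2*), the proteoglycan lowest in SP 2 among those that separated the groups (*Fmod*), the transporter lowest in SP 1 (*Slc13a4*) and the retinoic acid enzyme (*Aldh1a2*). Each sequence is the 150 bases before the RefSeq start on GRCm38.p6, 5′ to 3′ on the gene's strand, with matches to TATAAA and CCAAT on either strand in capitals, so that a CCAAT on the opposite strand reads ATTGG.
Col3a1, chr1:45311388-45311537, plus strand: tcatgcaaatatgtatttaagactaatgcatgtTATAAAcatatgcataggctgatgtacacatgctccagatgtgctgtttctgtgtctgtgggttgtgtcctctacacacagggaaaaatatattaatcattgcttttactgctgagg
Col1a2, chr6:4505468-4505617, plus strand: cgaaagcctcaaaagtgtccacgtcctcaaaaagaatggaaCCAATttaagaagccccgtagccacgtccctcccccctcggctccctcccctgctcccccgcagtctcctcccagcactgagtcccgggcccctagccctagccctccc
Fmod, chr1:134037104-134037253, plus strand: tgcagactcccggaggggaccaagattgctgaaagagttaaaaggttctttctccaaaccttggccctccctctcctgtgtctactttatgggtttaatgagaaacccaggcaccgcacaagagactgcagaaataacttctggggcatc
Slc13a4, chr6:35308127-35308276, minus strand: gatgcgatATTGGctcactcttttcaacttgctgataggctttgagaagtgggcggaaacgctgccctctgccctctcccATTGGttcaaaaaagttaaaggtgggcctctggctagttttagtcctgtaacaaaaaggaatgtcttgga
Aldh1a2, chr9:71215639-71215788, plus strand: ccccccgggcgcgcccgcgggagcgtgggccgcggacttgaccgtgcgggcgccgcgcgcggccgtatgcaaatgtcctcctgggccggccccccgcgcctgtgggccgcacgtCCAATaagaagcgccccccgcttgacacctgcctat

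In these windows *Col3a1* held TATAAA, with its first base 117 bases before the start, and *Col1a2* held CCAAT at 109 and *Aldh1a2* at 36 bases before it. *Slc13a4* held CCAAT on the opposite strand, at 142 and 70 bases, and *Fmod* held neither motif. Of the 32 genes, 22 had an entry, with 26 starts in all. TATAAA was present at 1 of 26 starts, or 3.85%, against 7.57% of 32851 promoters of the same length, and CCAAT at 7 of 26, or 26.9%, against 24.5%. The letters alone do not show that a factor binds there.

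Genes that work on or beside this matrix were read from the same fit, and 0 of them were called in any of 5 lists. Of 24 genes for collagen processing and crosslinking, the median log2 fold change was 0.0056. Lower values at an unadjusted p under 0.05 in the edgeR test were found for the lysyl oxidases *Loxl2* (−1.02) and *Loxl4* (−1.04), which crosslink collagen, and higher values for *Plod1* (0.30), a lysyl hydroxylase, *Bmp1* (0.21), a procollagen protease, and *P3h3* (0.18), a prolyl hydroxylase. Of 16 basement membrane genes the median was −0.16, with 4 lower at that threshold and 2 higher. *Col18a1* (−0.49), *Lama4* (−0.43), *Nid2* (−0.60) and *Hspg2* (−0.26) were the lower ones, while *Col4a2* (0.13) and *Col4a1* (0.14), the collagen chains of vascular basement membranes, were higher. Of the 16 genes, 8 had their lowest value in SP 1, where choroid plexus markers were low, against 18.9% of all tested genes. The part of choroid plexus in this list was not tested.

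Of 14 genes for matrix remodelling 12 were tested, with a median of −0.13, and 4 had lower and 1 higher values at an unadjusted p under 0.05 in the edgeR test. They were the metalloproteinase inhibitors *Timp3* (−0.30) and *Timp2* (−0.37), the fibroblast protease *Fap* (−0.89) and the metalloproteinase *Mmp15* (−0.21), and on the higher side the aggrecanase *Adamts4* (0.43). SP 1 was the lowest library for 6 of the 14 remodelling genes, and the part of choroid plexus in them was not tested. Of 19 TGF-beta signalling genes 18 were tested, with a median of 0.011, and *Thbs1* (−0.40), *Ltbp3* (−0.23) and *Smad2* (−0.18) were lower at that threshold. Of 30 further leptomeningeal or fibroblast genes 29 were tested, with a median of −0.13 and 22 below 0. Lower values at an unadjusted p under 0.05 were found for 5, led by *Igf2* (−0.70), *Gjb2* (−0.48), *Igfbp2* (−0.85) and *Ranbp3l* (−0.38), and a higher value for *Vim* (0.24). *Igf2* and *Igfbp2*, a growth factor and one of its binding proteins, are also made by choroid plexus, whose markers were low in SP 1, and the part of that tissue in these values was not tested.

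Markers of cells that could accompany leptomeninges in a dissection were summed in each library. Endothelial markers were at 97.5% to 101% of the vehicle mean in the SP libraries, and 4 of 8 had a log2 fold change below 0. The endothelial marker *Slco1a4* (−0.23), an organic anion transporter of brain vessels, had an unadjusted p under 0.05 in the edgeR test, and its SP values, 42.7 to 44.5 CPM, lay below the vehicle values of 47.4 to 54.6 CPM. Mural cell markers were at 95.3% to 107%, with 4 of 9 below 0. In SP 2, where the leptomeningeal fibroblast markers summed to 59.4% of the vehicle mean, endothelial markers were at 99.4% and mural cell markers at 95.3%. Most of that deficit was *Dcn*: the 7 other fibroblast markers summed to 98.4%, 92.0% and 82.2% of the vehicle mean in SP 1, SP 2 and SP 3. Border macrophage markers, low throughout at 8.22 to 13.3 CPM in sum, were at 94.6%, 71.5% and 66.1% in SP 1, SP 2 and SP 3, with 6 of 6 below 0 and 1, *Lyve1*, at an unadjusted p under 0.05 in the edgeR test. Of the 5 arachnoid barrier markers 4 were below 0, among them *Slc22a8* (−0.33), an organic anion transporter, and the exception was *Cldn11* (0.39), which oligodendrocytes also express. Their order over the SP libraries and that of the fibroblast genes were set side by side and not tested.

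From highest to lowest, the summed 32 genes ran SP 1, SP 3, SP 2. Of the lists above, the 8 leptomeningeal fibroblast markers, all of them among the 32 genes, ran in that order, at 99.8%, 85.5% and 59.4% of the vehicle mean. Mural cell markers ran in it too, within 95.3% to 107% of the vehicle mean. Among the SP libraries, the sums of endothelial, border macrophage and arachnoid barrier markers, and of the 7 fibroblast markers other than *Dcn*, were lowest in SP 3. Single arachnoid barrier markers went otherwise: 3 of the 5 had their lowest value in SP 2 and 0 in SP 3. The remaining lists did not share the order of the matrix genes either. Choroid plexus markers were at 4.34%, 67.7% and 95.2% of the vehicle mean in SP 1, SP 2 and SP 3, with 12 of 12 below 0. Oligodendrocyte markers were at 122%, 158% and 110%, with 0 of 8 below 0, and 7 of the 8 had higher values under SP at an unadjusted p under 0.05 in the edgeR test. *Mag* and *Mbp*, which are among these markers, are named in the paper as downregulated. Why the direction differed here was not tested. Astrocyte markers were at 93.6% to 106%, markers of blood at 85.0% to 150%, and hippocampal neuron markers at 102% to 111%. The part of dissection and tissue make-up in the levels of the 32 genes was not tested.

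**Figure D4:**
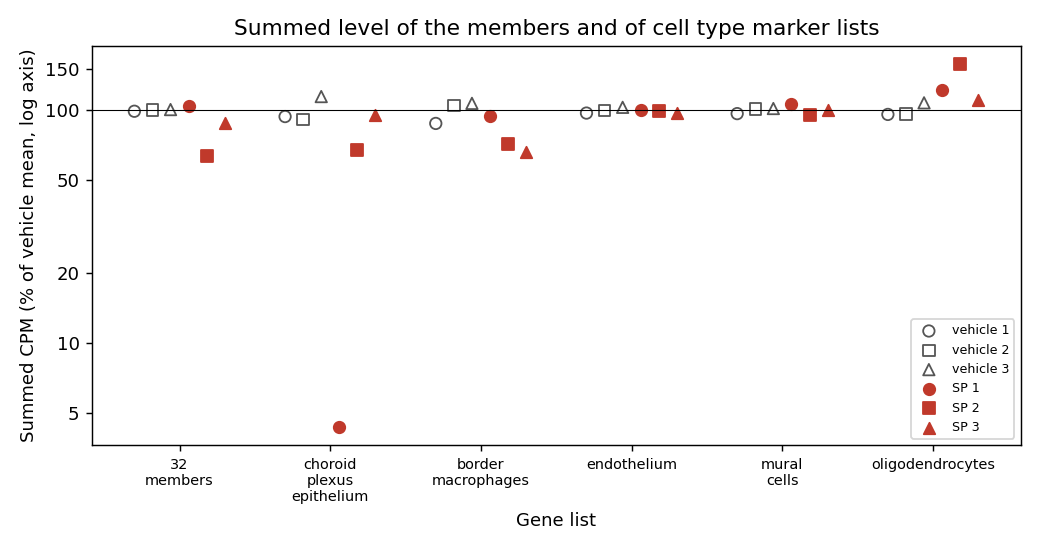
Summed CPM of the 32 genes and of 5 cell type marker lists in each library as a percentage of the vehicle mean, on a logarithmic axis, with open symbols for vehicle and filled symbols for SP and with circles, squares and triangles for replicates 1, 2 and 3. The 32 genes lie at 63.9% in SP 2, choroid plexus epithelium at 4.34% in SP 1, and endothelium and mural cells between 95.3% and 107% in the SP libraries.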

How the data were processed

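Stranded TruSeq mRNA libraries were made from the hippocampi of 6 mice, 3 given SP and 3 given vehicle. As the paper's methods and the submitters' processing notes state, the authors trimmed reads with Trim Galore, aligned them to GRCm38 with STAR and quantified them with Salmon; the annotation release is not given in the sources used here. The deposited values are estimated counts per gene, scaled for neither depth nor length, of which 9.77% were not whole. They were rounded here. Salmon can divide reads among genes of similar sequence, which affects such genes' counts.

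Groups were compared by edgeR 4.0.16 under R 4.3.3 (TMM, filterByExpr, glmQLFit and glmQLFTest) over 17069 genes with the replicate number as a block, because the labels call that number a batch. The deviations of same-numbered mice from their group means correlated by 0.014, −0.066 and 0.073 across genes. Alternatives used DESeq2 1.42.0, limma 3.58.1 (voom), other normalizations and filters, no block, and omission of each mouse or pair. The test was checked on simulated counts. Gene positions and exon lengths came from GENCODE M21, which holds 55240 of the identifiers, and promoters from RefSeq. Libraries held 22349964 to 27605935 counts. Standard errors came from the main fit, so from the spread between mice that was left after the block.

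The 32 genes and all lists were chosen with earlier results of these data known. Values in every library are given for genes with an unadjusted p under 0.05, called by an alternative, or among the 5 highest per length, and for 1 set gene per role group (*Col1a1*, *Col6a1*, *Dcn*, *Fn1*, *Slc6a13*, *Aldh1a2*, *Foxc1* and *Ptgds*). Genes of the 5 lists of matrix and fibroblast genes are named at an unadjusted p under 0.05, at most 5 a list by lowest p. Outside this rule, *Col1a2*, *Col6a3*, *Lum*, *Slc47a1*, the values named for *Col5a1* and *Col6a2*, *Col4a1*, and the single cell type markers named were chosen after their values were seen.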

Additional observations from a re-analysis of the deposited data

How the results depend on the processing

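Of 576 refitted log2 fold changes of single genes (32 genes under 18 alternatives), 546 kept their direction and their side of the FDR threshold, and 21 genes never changed direction. *Slc13a4* was called by DESeq2 with the block and by edgeR without the low-count filter, and *Fmod* without that filter, so the count of called genes went from 0 to 1 and 2. Genes with lower values at an unadjusted p under 0.05 numbered 5 without the replicate block, 16 without the filter, 2 with DESeq2 and 3 with DESeq2 and no replicate block, against 8. Over all genes the shares in these fits were 5.85%, 4.83%, 2.31% and 4.10%, against 5.59%. Such genes among the 32 numbered 6 to 15 with 1 pair left out, where the share over all genes was 3.54% to 6.10%. Without the block and with 1 mouse left out they numbered 3 to 16, where that share was 3.38% to 7.75%. With higher values there were 0 to 1. Over the whole table, 2 genes were called without the replicate block, 384 without the filter, 0 with at least 10 counts in every library, 36 with DESeq2, 133 with DESeq2 and no replicate block, 2 with limma-voom, 8 with edgeR's newer quasi-likelihood form (chosen after seeing the data) and 0 at an FDR under 0.05, against 5. Leaving out a pair gave 9 to 36 calls, and leaving out a mouse with no block 1 to 274 (2 without vehicle 2, 274 without SP 3). With and without the block, edgeR called 0 of the 32 genes.

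With a pair left out, list medians ranged from −0.28 to −0.11 for fibrillar collagens, 0.0037 to 0.033 for collagen processing, −0.28 to −0.051 for glycoproteins, −0.42 to −0.13 for transporters, −0.45 to −0.13 for transcription factors, −0.16 to −0.051 for basement membrane and −0.16 to −0.028 for matrix remodelling. Without SP 1 and without the block, they were −0.033 for basement membrane and 0.0068 for matrix remodelling. The transporter median was −0.043 without SP 2 and the block. Each change of direction of a gene came from leaving out mice. With a pair left out, log2 fold changes ranged from −0.42 to 0.12 for *Col6a1*, −0.61 to 0.025 for *Col6a2*, −0.46 to 0.38 for *Col6a3*, −0.019 to 0.034 for *Col12a1*, −0.41 to 0.15 for *Lum*, −0.22 to 0.11 for *Aspn*, −0.20 to 0.011 for *Bgn*, −0.11 to 0.019 for *Efemp1*, −0.47 to 0.12 for *Slc6a13* and −0.20 to 0.0023 for *Serping1*. With no block and without SP 2, they were 0.058 for *Col6a1*, −0.049 for *Col12a1*, 0.044 for *Aspn*, 0.013 for *Efemp1*, 0.087 for *Slc6a13* and 0.019 for *Ptgds*. Without SP 3 they were 0.033 for *Lum*, 0.070 for *Efemp1* and 0.015 for *Serping1*, and without SP 1 *Lum* was at 0.049. Without vehicle 1 they were −0.019 for *Col12a1* and 0.037 for *Efemp1*, without vehicle 2 *Col6a3* was at 0.36, and without vehicle 3 they were −0.020 for *Col12a1*, 0.073 for *Lum* and 0.0076 for *Aspn*. Why an omission moved a value was not tested. Each gene had at least 25 counts in every library, and 3 mice per group limit the precision.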
